A study of Mus musculus with 3 samples.

Results

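The levels of 102 mature miRNAs were compared between wild type Müller glia (MG) and MG from which Dicer had been deleted 1 month before (Dicer-cKO MG). They are all miRNAs whose normalized counts averaged at least 100 over these 2 samples, out of 602 miRNAs on the NanoString panel. The wild type sample pooled the MG of 40 retinas from adult Rlbp1-CreER:tdTomato mice, and the Dicer-cKO sample pooled 26 retinas from Rlbp1-CreER:tdTomato:Dicerf/f mice. Both groups had received tamoxifen at 75 mg/kg on 3 days, as labelled; the methods text differs on the number of days. A further sample of 44 retinas of the Rlbp1-CreER:tdTomato line, taken a week after light damage (LD), is given for reference only. Per the study's methods the LD mice came from a cross to albino Swiss Webster mice with the leucine form of RPE65, so that damage and genetic background cannot be told apart in this sample. All cells were isolated by fluorescence-activated sorting of the tdTomato reporter, so that wild type MG also carry Cre and were exposed to tamoxifen. The Rlbp1 promoter drives CreER in MG, and the reporter marks Cre activity rather than loss of Dicer, so a sorted cell that kept Dicer cannot be told apart from one that lost it. The panel holds no mRNA that marks MG, and the cell type itself was not tested.

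Dicer is the cytoplasmic RNase III enzyme that cuts hairpin precursors into the short duplexes from which mature miRNAs are loaded onto Argonaute. Its loss stops the supply of most new mature miRNAs, while molecules that are already loaded can last for long periods in cells that do not divide. Of the miRNAs described below, miR-204, miR-125b-5p, miR-9 and let-7 miRNAs are known for high levels in retinal or neural cells.

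The deposited values are listed by miRBase identifier without names. In 18 cases a name was taken from an earlier analysis of these data, in which names had been matched to bars plotted by the study, and these names rest on that match alone. All other miRNAs are given by identifier. For 14 of the 18 names RefSeq (GRCm38.p6) held a mature sequence, with the arm taken as the one the plain name stands for. The following 9 sequences are shown because they carry the largest reductions and the contrasts between relatives described below, and capitals mark the seed, bases 2 to 8, which pairs with target mRNAs. miR-100 and miR-99a share a seed, as do both miR-125 miRNAs, both let-7 miRNAs and both miR-29 miRNAs.
miR-204: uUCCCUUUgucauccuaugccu
miR-100: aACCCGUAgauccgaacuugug
miR-99a: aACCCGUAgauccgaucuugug
miR-125a-5p: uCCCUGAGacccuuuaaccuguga
miR-125b-5p: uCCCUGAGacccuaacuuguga
let-7c: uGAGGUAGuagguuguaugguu
let-7g: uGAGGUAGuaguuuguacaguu
miR-29a: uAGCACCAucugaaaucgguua
miR-29b: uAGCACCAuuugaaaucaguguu

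Each condition is 1 pooled sample. The spread between replicates is therefore unknown, and no test was run. Every ratio below is the Dicer-cKO value over the wild type value in the authors' normalization. The interval in parentheses is an exact 95% Clopper-Pearson interval that covers the counting error of the miRNA only. For ratios it takes the normalization as exact, so counting error in the reference mRNAs is left out and the intervals are too narrow. The miRNAs of wild type MG summed to 783889 normalized counts and those of Dicer-cKO MG to 195642, which is 25.0% of the wild type total (468576 after LD). The miRNA counts before scaling differed even more. The normalization had multiplied the counts of wild type MG by 1.15 and those of Dicer-cKO MG by 4.42, and before this step 678722 and 44258 miRNA counts had been recorded. The 6 highest control rows of the panel, which were not scaled, were by contrast higher in the Dicer-cKO sample, at ratios of 1.18 to 2.38. The 4 housekeeping mRNAs used as reference, which share a geometric mean by construction, had ratios of 1.05 for Actb, 0.778 for Gapdh, 0.945 for Rpl19 and 1.29 for B2m. Fewer cells of a type and less RNA per cell cannot be told apart in such pooled samples.

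A limit for low values was set from the 8 lowest control rows of each sample, which gave 27.0 normalized counts for wild type and 170.7 for Dicer-cKO MG. The limit of both samples rests on the same single control row, and in Dicer-cKO MG the other 7 rows were all at 1. On the whole panel 214 miRNAs of wild type MG exceeded it and 73 of Dicer-cKO MG did. The 71 that did so in both made up 33.2% of the wild type set and 97.3% of the Dicer-cKO set. The limit was chosen after the values were seen and includes the scaling factor of the sample. Without that row the limits were 21.2 and 4.42, and 235 and 243 miRNAs exceeded them. The counts were also spread over more miRNAs after Dicer deletion. In wild type MG 2 miRNAs made up 50% of all miRNA counts and 19 made up 90%, compared with 6 and 40 in Dicer-cKO MG.

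Of the 102 miRNAs, 78 were lower (76.5%; panel 58.2%) and 24 were higher (23.5%; panel 41.0%) in Dicer-cKO MG. The median ratio was 0.388, a decline of 61.2%. Reduction to a ratio of at most 0.5 was found for 62 miRNAs (60.8%), compared with 38.5% of the 361 miRNAs on the panel that were above the lowest value in either sample. Another 21 stayed within 2-fold of wild type (20.6%; panel 38.5%), and 19 were at least 2-fold higher (18.6%; panel 23.0%). For the panel shares a value at the lowest of its sample was raised to 3 counts. These were 3.46 normalized counts in wild type and 13.3 in Dicer-cKO MG. miRNAs undetected in Dicer-cKO MG and low in wild type MG can thus count as within 2-fold or higher. The panel shares are therefore no like-for-like comparison for the 102. The intervals of all 62 reductions lay below 1 and those of all 19 increases above 1, with the normalization taken as exact. Among the 21 in between, 10 intervals lay below 1 and 5 above it, while 6 included 1. In Dicer-cKO MG, 30 of the 102 did not exceed the limit for low values, 23 of them among the 62 reduced miRNAs, whereas only 2 did not exceed the limit set without the highest control row. All 19 increased miRNAs exceeded it.

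**Figure D1:**
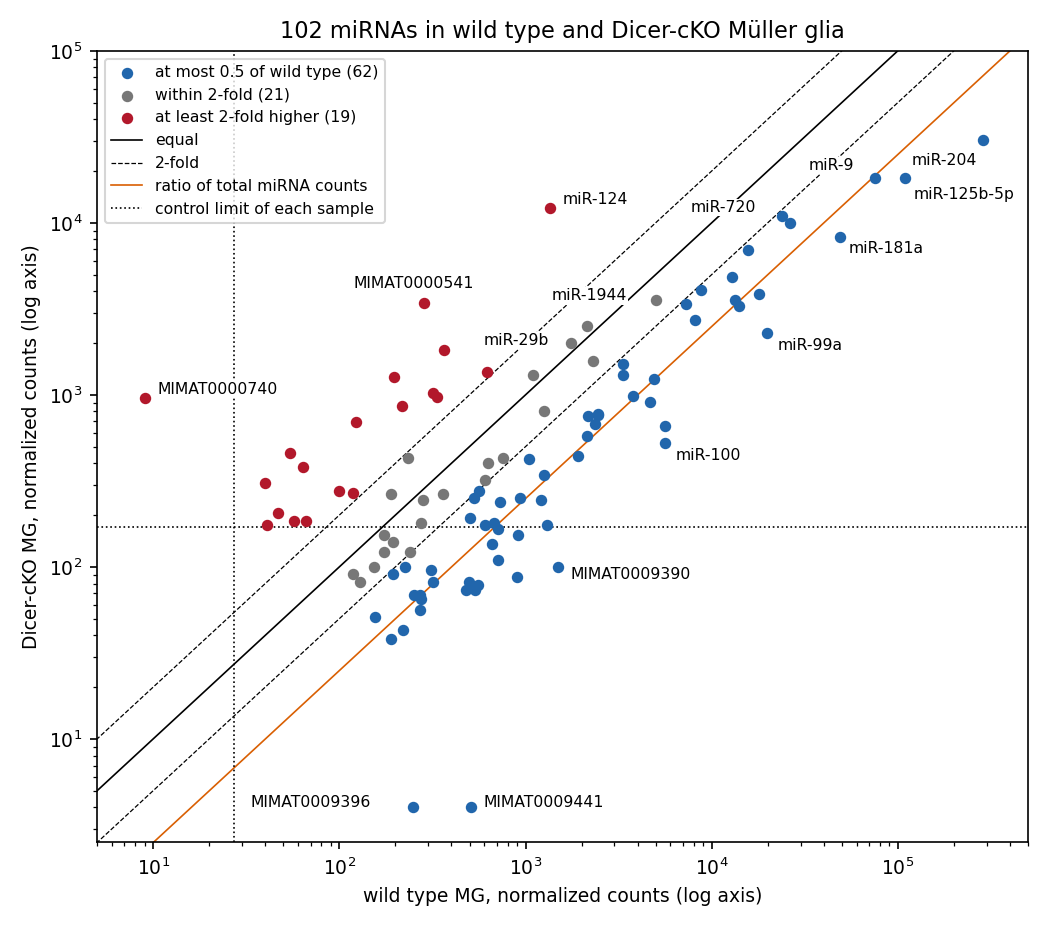
Normalized counts of the 102 miRNAs in wild type (x, log axis) and Dicer-cKO MG (y, log axis), 1 point per miRNA, with solid, dashed and orange lines for equal levels, 2-fold differences and the ratio of the total counts, and dotted lines at each sample's limit for low values. The 62 reduced miRNAs reach the highest wild type counts, whereas no miRNA that was at least 2-fold higher exceeded 1354 counts in wild type MG.

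The outcome varied over the range of wild type counts, without an even gradient. Among the 23 miRNAs of at least 3000 counts in wild type MG, 22 were reduced to a ratio of at most 0.5 and none was 2-fold higher. Of the 17 between 1000 and 3000 counts 11 were reduced, 5 stayed within 2-fold and 1 was higher. For the 27 between 300 and 1000 counts these numbers were 19, 4 and 4, and for the 27 between 100 and 300 counts 10, 11 and 6. The median ratio was 0.289 between 300 and 1000 counts and 0.316 between 1000 and 3000. The cutoff on the mean fixes part of this pattern, because the 8 miRNAs below 100 counts in wild type MG could only enter by being higher in Dicer-cKO MG, and the 19 below 100 in Dicer-cKO MG only by being lower. Among the 75 with at least 100 counts in both samples, 45 were reduced, 19 stayed within 2-fold and 11 were higher.

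The 4 most abundant miRNAs of wild type MG were lower in Dicer-cKO MG under all 10 scalings tried, but the size of the reduction depended on the scaling. With an equal miRNA total in both samples the ratios were 0.427 for miR-204, 0.665 for miR-125b-5p, 0.681 for miR-181a and 0.962 for miR-9. Before scaling they were 0.0278, 0.0434, 0.0444 and 0.0627 in the same order. miR-204, which lies within Trpm3 (chr19:22750610-22750631, plus strand) and is prominent in pigmented and glial cells of the eye, had 285706, 51963 and 30438 normalized counts in wild type, LD and Dicer-cKO MG. It was thus left at 10.7% of wild type (10.4 to 10.9). Its share of all miRNA counts fell from 36.4% (Clopper-Pearson 36.3 to 36.6) to 15.6% (15.2 to 15.9), and it was still the most abundant miRNA in Dicer-cKO MG.

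miR-125b-5p, known for repressing targets that promote cell death and differentiation, had 109596, 19063 and 18202 counts in wild type, LD and Dicer-cKO MG, 16.6% of wild type (16.1 to 17.1). miR-181a had 48829, 19965 and 8300 counts in the same order and was left at 17.0% (16.2 to 17.8). miR-9, a regulator of neural progenitors encoded at 3 loci, had 75416, 38870 and 18100 counts and was left at 24.0% (23.2 to 24.8). The intervals of miR-125b-5p and miR-181a overlap, and miR-9 retained more than either. Together miR-204, miR-125b-5p and miR-9 were the leading 3 in both samples, but made up 60.0% of the counts in wild type MG (59.9 to 60.2) and 34.1% in Dicer-cKO MG (33.7 to 34.6).

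The smallest measured fraction among the named miRNAs was left of miR-100, although its interval includes that of miR-204. miR-100 had 5626, 1507 and 524 counts in wild type, LD and Dicer-cKO MG, 9.31% of wild type (7.66 to 11.1). Its relative miR-99a, which differs from it at 1 base outside the seed, had 19815, 9626 and 2284 counts and was left at 11.5% (10.5 to 12.6). miR-125a-5p had 5639, 1275 and 661 counts and was left at 11.7% (9.86 to 13.8). Both members of each seed pair were reduced, miR-100 and miR-125a-5p more than their relatives. Relative to miR-99a the change of miR-100 was 0.808 (log-scale interval from the 4 counts, 0.660 to 0.989), and relative to miR-125b-5p that of miR-125a-5p was 0.706 (0.598 to 0.833). Such relative changes do not depend on the scaling, because both miRNAs of a pair share its factor. The background subtracted beforehand is of unknown size and does not cancel in them.

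Of the let-7 miRNAs, which promote differentiation and restrain growth, only let-7c and let-7g had a name here. Other members may be among the miRNAs given by identifier only, so the values below do not stand for the family. let-7c and let-7g retained more than miR-100, miR-99a and the miR-125 miRNAs. With an equal miRNA total in both samples they were above wild type, at ratios of 1.53 and 1.78. let-7c had 26178, 9888 and 9984 counts in wild type, LD and Dicer-cKO MG, 38.1% of wild type (36.5 to 39.8). let-7g, which lies within Wdr82 (chr9:106178846-106178867, plus strand), had 15643, 13871 and 6952 counts and was left at 44.4% (42.1 to 46.8). As shares of all miRNA counts both rose, let-7c from 3.34% to 5.10% and let-7g from 2.0% to 3.55%. Such a rise in share was found for 83.1% of the panel, with values at the lowest of a sample raised to 3 counts. This figure can include miRNAs that were undetected in Dicer-cKO MG and low in wild type MG. Mir99a (chr16:77598940-77598961) and Mirlet7c-1 (chr16:77599672-77599693) lie 710 bases apart on the plus strand, and their miRNAs differed in what was left. The change of miR-99a was 0.302 (0.274 to 0.333) of that of let-7c. let-7c is also encoded by Mirlet7c-2 on chromosome 15, and the assay does not separate the 2 loci.

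The miR-29 miRNAs, known for repressing extracellular matrix genes, differed from each other in their change, a contrast that no scaling can alter because both share its factor. Their directions did depend on it, since miR-29b fell below wild type with B2m as the only reference (0.887) and before scaling (0.300), and miR-29a rose above it with an equal miRNA total (1.86). miR-29a had 8716, 10969 and 4052 counts in wild type, LD and Dicer-cKO MG, 46.5% of wild type (43.3 to 49.8). miR-29b had 1748, 7515 and 2005 counts, a ratio of 1.15 (1.03 to 1.27). The change of miR-29b was 2.47-fold that of miR-29a (2.18 to 2.80). Mir29b-1 (chr6:31063025-31063047) and Mir29a (chr6:31062673-31062694) lie 330 bases apart on the minus strand of chromosome 6, and miR-29b is also encoded by Mir29b-2 on chromosome 1.

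Further abundant miRNAs lay between these groups. miR-22, known from muscle and other tissues for roles in stress responses, had 4916, 4438 and 1236 counts in wild type, LD and Dicer-cKO MG, 25.1% of wild type (22.1 to 28.3). miR-135a had 12833, 11626 and 4865 counts and was left at 37.9% (35.6 to 40.3). miR-16, which represses cell cycle genes, had 7260, 2732 and 3358 counts and was left at 46.3% (42.8 to 49.8). miR-22 was thus close to the decline of the total, while miR-135a and miR-16 were retained above it. The direction of these 3 depended on the scaling, since with an equal miRNA total their ratios were 1.01, 1.52 and 1.85, and with miR-204 left out of that total miR-135a and miR-16 were still above wild type (1.14 and 1.39). Of the 10 miRNAs with the highest wild type counts, MIMAT0000522 had 18043, 11425 and 3875 counts in wild type, LD and Dicer-cKO MG, respectively, and a ratio of 0.215 (0.200 to 0.230), and MIMAT0000514 had 13955, 7419 and 3296 counts, a ratio of 0.236 (0.219 to 0.254). MIMAT0000515, with 4676, 1910 and 909 counts, had a ratio of 0.194 (0.168 to 0.223).

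**Figure D2:**
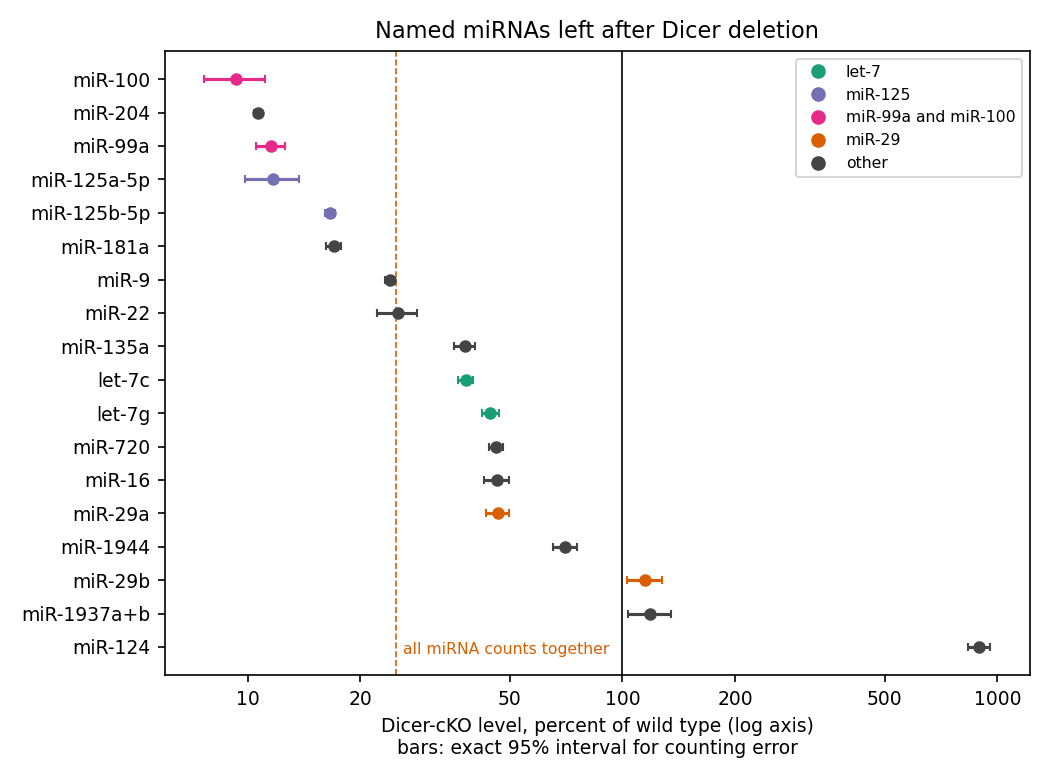
Dicer-cKO level of the 18 named miRNAs in percent of wild type (x, log axis), each from 1 pooled sample per condition. Bars are exact 95% intervals for the counting error of the miRNA only, and the dashed line at 25.0% is the level of all miRNA counts together. miR-100, miR-204, miR-99a and miR-125a-5p lie lowest, at 9.31% to 11.7%, and miR-29b, miR-1937a+b and miR-124 lie above wild type in the authors' scaling, the first 2 of them below it before scaling.

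Of the 6 tRNA-like entries listed, 3 had a name here. miR-1937a and miR-1937b are listed as well, and by its name the miR-1937a+b entry covers both. miR-1937c may be among the miRNAs given by identifier only. Of the 3 named entries, miR-720 was among the reduced miRNAs, while miR-1944 and miR-1937a+b stayed within 2-fold. With an equal miRNA total miR-720 and miR-1944 were above wild type (1.84 and 2.82). miR-720, now regarded as a tRNA fragment, had 23904, 172827 and 10983 counts in wild type, LD and Dicer-cKO MG, 45.9% of wild type (44.0 to 47.9). miR-1944 had 5024, 2622 and 3535 counts and was left at 70.4% (65.1 to 75.8), the only miRNA above 3000 counts in wild type MG that stayed within 2-fold. miR-1937a+b had 1094, 6129 and 1298 counts, a ratio of 1.19 (1.04 to 1.35). Outside this group, MIMAT0000536 had 2142, 2624 and 2527 counts, a ratio of 1.18 (1.07 to 1.3). Both miR-1937a+b and MIMAT0000536 turned below wild type with B2m as the only reference (0.918 and 0.913) and before scaling (0.310 and 0.308). Together miR-720, miR-1944 and miR-1937a+b rose from 3.83% of all miRNA counts in wild type MG to 8.08% in Dicer-cKO MG. A larger share in Dicer-cKO MG was also found for 83.1% of the panel, a figure that can include miRNAs undetected in Dicer-cKO MG. Whether these 3 entries pass through Dicer was not tested.

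The composition of the sample changed accordingly. A larger share of all miRNA counts in Dicer-cKO than in wild type MG was found for 73 of the 102 miRNAs and a smaller share for 29. The figure for the panel was 83.1%, which can include miRNAs that were undetected in Dicer-cKO MG and low in wild type MG. The 62 reduced miRNAs made up 96.0% of wild type and 75.0% of Dicer-cKO counts, whereas the 19 increased ones rose from 0.562% to 13.8%. Of the 10 most abundant miRNAs of each sample 7 were the same. miR-124 moved from rank 34 to rank 4.

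**Figure D3:**
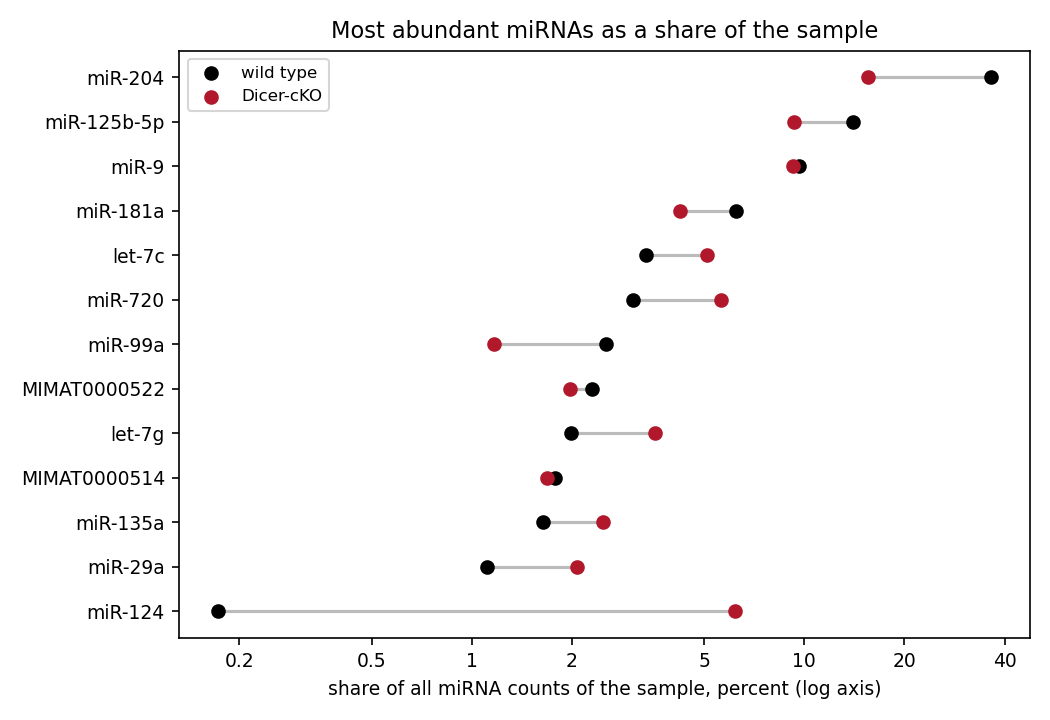
Share of all miRNA counts (x, percent, log axis) of the miRNAs that were among the 10 most abundant in either sample, with 1 black point for wild type and 1 red point for Dicer-cKO MG. miR-204 fell from 36.4% to 15.6% and miR-124 rose from 0.173% to 6.19%, while miR-9 was at 9.62% and 9.25%.

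Only 2 of the 102 miRNAs were at the lowest value of the Dicer-cKO sample. MIMAT0009441 had 509, 89 and 4 counts in wild type, LD and Dicer-cKO MG, and MIMAT0009396 had 249, 60 and 4. The upper ends of their intervals were ratios of 0.0322 and 0.0662, for counting error alone and with an unknown background already subtracted. With the Dicer-cKO values raised to the limit for low values the ratios were 0.335 and 0.686. Both were therefore not detectable with the miRNA counts recorded for this sample, which does not show that they were absent.

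Another 3 miRNAs had measured ratios below 0.1, of which miR-100 alone exceeded the limit for low values in Dicer-cKO MG. MIMAT0009390 had 1493, 221 and 100 counts in wild type, LD and Dicer-cKO MG, respectively, and a ratio of 0.0670 (0.0407 to 0.0991). MIMAT0000221 had 899, 211 and 87 counts, a ratio of 0.0968 (0.0560 to 0.147). Both were below that limit, and with the Dicer-cKO value raised to it the ratios were 0.114 and 0.190. MIMAT0009433, with 1304, 217 and 175 counts, and MIMAT0009438, with 908, 176 and 153, had ratios of 0.134 and 0.169. Several of these identifiers belong to one run of the miRBase numbering, MIMAT0009387 to MIMAT0009441. Of the 11 miRNAs in that run 8 were reduced to a ratio of at most 0.5 (72.7%), compared with 59.3% of the other 91, and 7 were below the limit in Dicer-cKO MG. The run was chosen after the values were seen.

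The largest increase in counts was that of miR-124, the most characteristic miRNA of neurons. It had 1354, 5506 and 12106 counts in wild type, LD and Dicer-cKO MG, respectively, and a ratio of 8.94 (8.35 to 9.58). The ratio was 2.34 before scaling and 35.8 with an equal miRNA total. Of the 15 miRNAs listed as neuronal miR-124 was the only one that had a name here. None of those listed for photoreceptors, immune cells, red blood cells or vessels had one. Members of these lists may be among the miRNAs given by identifier only, including the increased ones. The part that RNA of other retinal cells has in the increase of miR-124 was therefore not tested.

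MIMAT0000541 had 285, 626 and 3433 counts in wild type, LD and Dicer-cKO MG, respectively, and a ratio of 12.0 (10.4 to 14.0). MIMAT0000740 had 9, 744 and 962 counts. Its ratio of 107 (56.6 to 299) rests on a wild type value below the limit, and with that value raised to the limit the ratio was 35.6. It was the only one of the 102 that did not exceed the limit in wild type MG. In the same order of samples, further increases among miRNAs with a mean of at least 500 were found for MIMAT0000138 (196, 125 and 1267 counts, ratio 6.46), MIMAT0000212 (363, 414 and 1811 counts, ratio 4.99) and MIMAT0000154 (216, 296 and 856 counts, ratio 3.96). MIMAT0000544, MIMAT0000668 and MIMAT0000534 had ratios of 3.23, 2.88 and 2.17, and before scaling they turned below wild type, at 0.844, 0.753 and 0.566. All of these intervals lay above 1 in the authors' scaling. Of the 19 increased miRNAs 12 were also higher than wild type after LD (26 of all 102), and 15 were higher in Dicer-cKO MG than after LD (32 of all 102). The 19 were selected on their ratio to the same wild type sample, so nothing is read from these counts.

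**Figure D4:**
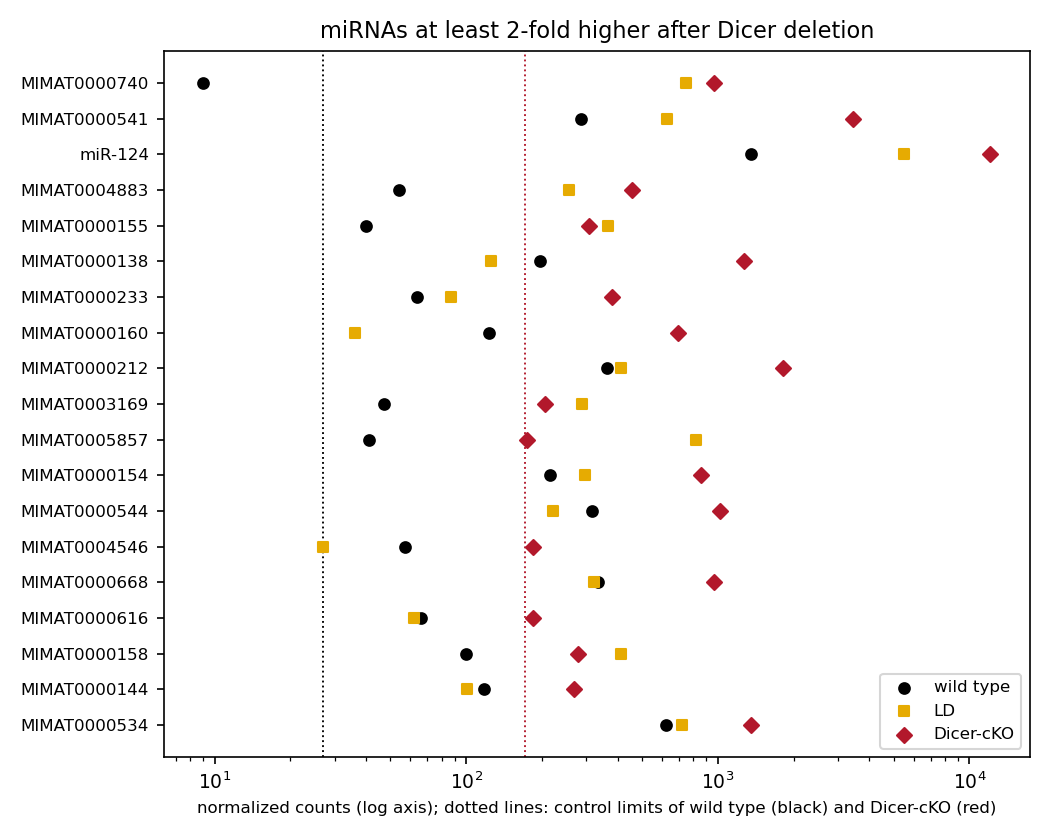
Normalized counts (x, log axis) of the 19 miRNAs that were at least 2-fold higher in Dicer-cKO than in wild type MG, with 1 point each for wild type, LD and Dicer-cKO, and dotted lines at the limits for low values in wild type (27.0) and Dicer-cKO MG (170.7). All 19 exceed the Dicer-cKO limit, and MIMAT0000740 lies below the wild type limit.

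The lists of miRNA families and cell types could be described only where names were at hand. In a list of 14 MG miRNAs from the study's text 11 had a name. The list had left out miR-1944, which that text also counts among MG miRNAs. Of the 12 with it, 11 were reduced to a ratio of at most 0.5 in the authors' scaling, and miR-1944 stayed within 2-fold, with a median decline of 75.4% over the 12 (all 102 miRNAs, 60.8% reduced and a median decline of 61.2%). All 12 had more than 3000 counts in wild type MG, where 22 of 23 miRNAs were reduced. The study chose these miRNAs in part from the same samples, so they are no independent evidence of a direction. In the list of miR-99, miR-100 and miR-125 clusters, which includes let-7c, 5 of 8 had a name and all 5 were reduced in the authors' scaling, with a median decline of 88.3%. These 5 also had more than 3000 counts in wild type MG, so that their count is close to that of other miRNAs in this range. Of the let-7 list 2 of 9 and of the miR-29 list 2 of 3 had a name. The miR-181 and the miR-15 and miR-16 lists had 1 each. No miRNA of the miR-30, miR-17 to miR-92 or miR-23, miR-27 and miR-24 lists had a name here, nor had miR-451a, which matures without Dicer. Members of these lists may be among the miRNAs given by identifier only. Of the list for retinal pigment epithelium only miR-204 had a name.

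Among the 14 sequenced miRNAs the base composition of the mature sequence, which the choice of miRNAs did not use, varied with the reduction. The Spearman correlation of GC content and ratio was -0.70 over these 14, and -0.73 over the 12 that are not let-7. Left out for want of a sequence were miR-720, miR-1937a+b, miR-1944 and miR-124, which had the largest ratio of the named miRNAs (8.94). The pattern is therefore not shown for all named miRNAs. The 4 with a GC content of 50% were left at 9.31% to 16.6% of wild type, and the 3 below 35% at 24.0% to 115%. Those 4 are miR-100 with its seed relative miR-99a, and miR-125a-5p with its seed relative miR-125b-5p. The correlation was not repeated without these pairs. All 14 miRNAs share both samples, and the part that hybridization has in this pattern was not tested.

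The miRNAs at the edge of the cutoff were as follows. MIMAT0009426 had 156, 54 and 51 counts in wild type, LD and Dicer-cKO MG, and MIMAT0007872 had 118, 23 and 91, just above a mean of 100. MIMAT0005847, with 134, 2 and 65 counts, and MIMAT0000548, with 100, 27 and 96, fell just below it.

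The numbers of reduced and increased miRNAs depended on the scaling, which multiplies all miRNAs of a sample by 1 factor. With an equal miRNA total in both samples, 8 of the 102 were reduced to a ratio of at most 0.5, 54 stayed within 2-fold and 40 were higher by at least 2-fold, and the median ratio was then above 1. With Actb, Gapdh, Rpl19 or B2m as the only reference between 51 and 68 were reduced and between 17 and 20 were higher. Under the authors' scaling and all 9 alternatives, 29 of the 102 were lower than in wild type MG, among them miR-100, miR-204, miR-99a, miR-125a-5p, miR-125b-5p, miR-181a and miR-9. In the same 10 scalings 12 were higher, among them miR-124, MIMAT0000541 and MIMAT0000740. A ratio of at most 0.5 under all 10 was found for 8 miRNAs, and one of at least 2 for 5.

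**Figure D5:**
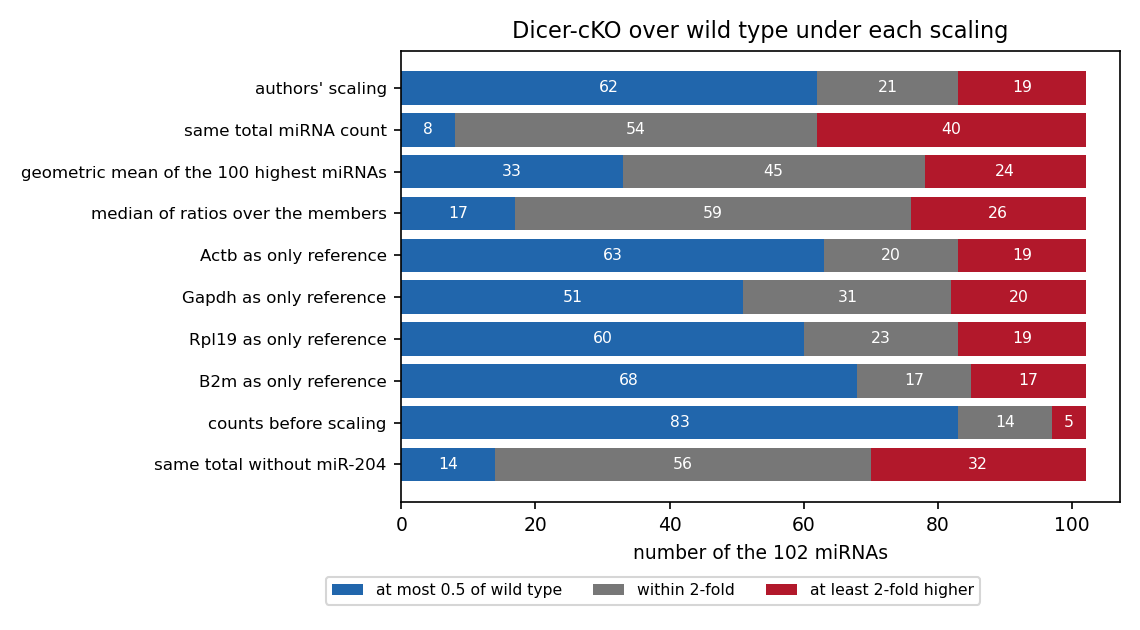
Number of the 102 miRNAs (x) that were reduced to at most 0.5 of wild type, within 2-fold or higher by at least 2-fold in Dicer-cKO MG under the authors' scaling and 9 alternatives (rows). The reduced miRNAs range from 8 with an equal miRNA total to 83 with the counts before scaling.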

How the data were processed

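The NanoString nCounter assay hybridizes a tag to each mature miRNA and counts tagged molecules, with no amplification step. The deposited values are a signal: the authors used nSolver 4.0 to subtract background measured with 8 negative controls and to scale each sample to 4 housekeeping mRNAs (6 positive controls were also present). The table holds 626 rows, of which 602 are miRNAs. The values of 1 pooled sample per condition were used.

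Scaling factors were derived from the decimals of 8 control rows per sample, and counts behind the ratios were obtained by division. How much background had been subtracted is unknown, and intervals cover the counting error of the miRNAs after subtraction only. They leave out the counting error of the 4 housekeeping mRNAs behind the scaling factors. Log2 ratios used a pseudocount of 1, and other ratios none. For the classes, the median ratio and the panel shares, a value at the lowest of its sample was raised to 3 counts. The factor recovery and the intervals were tested on simulated data. The members and lists were chosen with earlier results of these data known. Named were the 10 highest in wild type MG, the 10 largest and 10 smallest ratios among means of at least 500, up to 4 of each list, and 2 on either side of the cutoff; members with a ratio of at most 0.1, at a lowest value or below a limit, and all members with a name, were added after the values were seen. Alternatives were other scalings, cutoffs, pseudocounts and folds. Symbols of the housekeeping mRNAs, miRNA sequences and positions came from RefSeq (GRCm38.p6). The analysis used scipy 1.17.1, pandas 2.3.3, numpy 2.4.6 and matplotlib 3.10.9 under Python 3.11.15.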

Additional observations from a re-analysis of the deposited data

Results flagged for a closer look

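The panel lists 6 entries named nmiR without saying what they measure, and 3 of them had more than 100 counts in both samples and were higher in Dicer-cKO MG. nmiR00809 rose from 4060 to 31874 (ratio 7.85), nmiR00811 from 533 to 2045 (ratio 3.84) and nmiR00813 from 14775 to 70385 (ratio 4.76). Before scaling their ratios were 2.05, 1.0 and 1.24, while the scaling raised Dicer-cKO counts 3.83 times as much as wild type counts. They are no part of the miRNA comparison above.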

How the results depend on the processing

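No paired analysis was possible because there was 1 sample in each group, and no replicate could be left out. The alternatives were planned, except the total without miR-204, the values raised to the limit and the list with miR-1944, which were chosen after the values were seen. The counts of reduced, intermediate and increased miRNAs were 62, 21 and 19, with 2 at the lowest value and a median log2 ratio of -1.36. The cause of the changes below was not tested, apart from cutoffs and folds, which change the miRNAs counted. Scaled to the same total the counts were 8, 54 and 40 (median 0.64), without miR-204 in the total 14, 56 and 32 (0.23), by the median of ratios 17, 59 and 26 (-0.00012), and by the 100 highest miRNAs 33, 45 and 24 (-0.42). Before scaling 5 were increased (-3.29), and the median was -1.73 with B2m and -1.0 with Gapdh alone. With values raised to the limit 33 were intermediate (-0.91), and with the limit set without the highest control row 21. A mean of at least 50 gave 38 intermediate and 9 at the lowest value (-1.13), of 200 gave 12 increased and 1 at the lowest value (-1.55), and of 1000 gave 28, 6 and 3, with 0 at the lowest value (-1.59). A wild type cutoff of 100 gave 11 increased and 8 at the lowest value (-1.61). At 1.5-fold 12 were intermediate, and at 4-fold the counts were 29, 62 and 11. The number of the 102 above wild type went from 24 to 73 with the same total, 56 without miR-204 in it, 51 by the median of ratios, 39 by the 100 highest miRNAs, 26 with Gapdh alone, 21 with B2m alone and 12 before scaling, and stayed at 24 with Actb or Rpl19 alone. The following values cover, of these, only miRNAs named in the text whose interval excluded 1. With the same total, those that turned above 1 were miR-22 1.01, MIMAT0009426 1.31, miR-135a 1.52, let-7c 1.53, let-7g 1.78, miR-720 1.84, miR-16 1.85, miR-29a 1.86 and miR-1944 2.82. Without miR-204 in the total these were miR-135a 1.14, let-7c 1.15, let-7g 1.34, miR-720 1.39, miR-16 1.39, miR-29a 1.40 and miR-1944 2.12. By the median of ratios they were let-7g 1.14, miR-720 1.18, miR-16 1.19, miR-29a 1.20 and miR-1944 1.81, and by the 100 highest miRNAs miR-1944 1.35. Of the same miRNAs, MIMAT0009426 was at 1.09 with values raised to the limit. Those that turned below 1 with B2m alone were miR-29b 0.887, MIMAT0000536 0.913 and miR-1937a+b 0.918. Before scaling they were miR-29b 0.300, MIMAT0000536 0.308, miR-1937a+b 0.310, MIMAT0000534 0.566, MIMAT0000668 0.753 and MIMAT0000544 0.844.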
